A study of Mus musculus with 2 samples.

Results

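The T cell receptor complex and its coreceptors were examined as 10 genes of the 32285 in the deposited matrices: the receptor constant regions Trac, Trbc1 and Trbc2, the CD3 chains Cd3d, Cd3e, Cd3g and Cd247, and the coreceptor chains Cd8a, Cd8b1 and Cd4. The members were chosen by name and all 10 were found once in both matrices. The data were single-cell RNA counts of CD45-sorted cells from 4T1 tumours, a BALB/c mammary carcinoma line, with 1 library from tumours of 4T1 cells expressing shPml and 1 from tumours of 4T1 cells expressing shCTRL. In both groups the cells were implanted in 50 µl of PBS into a mammary fat pad of BALB/c hosts, which were 6 to 8 weeks old, and tumours were collected at day 14. The shRNA was carried by the implanted tumour cells and not by the sorted host cells, so Pml in these cells (91 UMIs in shPml, 152 in shCTRL) checks no label. The sources used here give neither the number nor the sex of the mice behind a library. Ptprc, which encodes CD45, had a UMI in 57.6% of kept shPml and 80.0% of kept shCTRL barcodes, and Epcam, an epithelial gene, in 27 and 12 barcodes.

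A T cell recognises peptide bound to MHC through an alpha and a beta chain, whose constant parts are encoded by Trac and by Trbc1 or Trbc2. Neither chain signals on its own. The CD3 gamma, delta and epsilon chains and the zeta chain (Cd247) carry the tyrosine motifs that the kinase Lck phosphorylates, and Lck is brought there by the coreceptor CD4, which binds MHC class II, or CD8, an alpha-alpha or alpha-beta dimer that binds MHC class I. Mature alpha-beta T cells usually keep 1 of the coreceptors, while some dendritic cells express Cd8a or Cd4 without a receptor.

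Trbc1 (mm10 chr6:41538218-41539881, plus strand) and Trbc2 (chr6:41546730-41548352, plus strand) are neighbouring copies with near-identical coding bases. Where these bases differ bears on how far coding reads of the pair can be separated. In the GENCODE M21 transcripts the 518 coding bases of the constant region were 95.6% identical, with 23 differing bases. Exon 1 held 375 of those bases and 1 difference, C260A (Trbc1 base, position from the start of the constant region, Trbc2 base). The stretch around it, positions 240 to 280, is shown with the differing base in capitals.
Trbc1: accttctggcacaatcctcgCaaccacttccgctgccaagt
Trbc2: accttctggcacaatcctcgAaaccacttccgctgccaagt
Exons 2 to 4 held the other 22 differences in 143 coding bases (84.6% identity). These bases, positions 376 to 518, are shown in the same way because they are where a coding read can tell the copies apart.
Trbc1: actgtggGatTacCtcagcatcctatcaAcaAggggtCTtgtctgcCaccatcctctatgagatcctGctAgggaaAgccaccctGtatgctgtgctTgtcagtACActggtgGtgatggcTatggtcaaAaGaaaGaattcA
Trbc2: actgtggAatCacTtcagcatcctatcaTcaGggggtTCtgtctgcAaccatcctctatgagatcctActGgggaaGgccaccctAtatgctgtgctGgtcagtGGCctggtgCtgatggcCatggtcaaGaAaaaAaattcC
The longest run shared by both was 259 bases. Untranslated bases were not compared, and counts of the pair are reported as uncertain in their split.

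The other members lie at mm10 chr14:54220521-54224206 (Trac, plus strand), chr1:165788681-165877277 (Cd247, plus), chr6:71322788-71337494 (Cd8b1, plus), chr6:71373427-71379173 (Cd8a, plus) and chr6:124864692-124888221 (Cd4, minus). Cd3g (chr9:44969572-44980431, minus), Cd3d (chr9:44981786-44987339, plus) and Cd3e (chr9:44998740-45009627, minus) fall within 40056 bases, and the starts of Cd3g and Cd3d are 1355 bases apart on opposite strands.

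A barcode stands for a cell, and barcodes over 10% mitochondrial UMIs were left out. This kept 1754 shPml barcodes, with a median of 1300 UMIs, and 856 shCTRL barcodes, with a median of 4040 UMIs. The limit removed 22.7% and 61.9% of barcodes. A member UMI was present in 1434 kept shPml barcodes and 784 kept shCTRL barcodes, which held 17821 and 19162 member UMIs. Barcodes were placed in gates by genes other than the members: neutrophil (S100a8 and S100a9 at least 1% of UMIs), B (Cd79a and Cd79b), NK (Ncr1 and Klrb1c), myeloid (a list that includes Csf1r, C1qa, C1qb, Ms4a7 and Fcgr1), dendritic (Flt3, Xcr1, Clec9a, Siglech and Cd209a), regulatory (Foxp3), naive (Lef1, Ccr7, Igfbp4 and Dapl1), effector (Gzmb, Cxcr6, Xcl1, Ccl5 and Nkg7) and other. A set of 266 barcode sequences was shared by the libraries, 263 of them kept in shPml and 261 in shCTRL. Shared barcodes made up 120 of the 132 shCTRL effector barcodes but 50 of the 449 shCTRL naive barcodes, so results are given with and without them. In 198 pairs kept in both libraries the shPml copy was the deeper, with a median of 2463.5 UMIs against 819, and in 63 the shCTRL copy was, with 10515 against 727. With 1 library per group no p-value is given, and intervals (exact, 95%) cover counting error only.

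Detection rose with depth in both libraries, except for the CD8 chains in shCTRL, and the members were detected at different rates. To count detection without using the members themselves, 931 shPml and 614 shCTRL barcodes were taken as T barcodes from other T cell genes (at least 2 UMIs over a list that includes Lck, Thy1, Cd2, Ms4a4b, Skap1, Lat and Bcl11b). A member UMI was present in 925 and 613 of them. Trbc2, the beta constant region most often seen, was found in 87.1% of shPml T barcodes of 500 to 1000 UMIs and in 97.8% of those with 2000 or more. Trac, the only alpha constant region, went from 64.4% to 75.1% to 207 of 230 barcodes over the depth bins in shPml and from 55.0% to 70.8% to 89.4% in shCTRL. Among the CD3 chains, Cd3e was found in 40.3% of the shallowest and 84.8% of the deepest shPml T barcodes, and in 38.3% and 95.7% of those in shCTRL. Of these chains Cd247, the zeta chain, was the most often missed. It was found in only 12.2% and 37.8% of those barcodes in shPml, and in 16.7% and 61.6% in shCTRL. In all, 10.6% of shPml and 2.93% of shCTRL T barcodes had no UMI of any CD3 chain, and 30.4% and 24.3% had none of any coreceptor. When every member-positive barcode was thinned to 500 UMIs, a CD3 chain was found in 61.1% of shPml and 64.0% of shCTRL barcodes, against 82.7% and 89.4% before thinning.

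Among the members, Cd4 had the largest ratio of detection between the deepest and the shallowest bin in both libraries. It was found in 1.69%, 1.97% and 15.2% of shPml T barcodes over the depth bins and in 3.33%, 10.8% and 50.7% of shCTRL T barcodes. Cd8a rose from 22.7% to 55.7% in shPml, while in shCTRL it was 26.7%, 38.5% and 26.4%. The cells differ between bins as well as their depth, and these cannot be told apart within a bin.

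**Figure D1:**
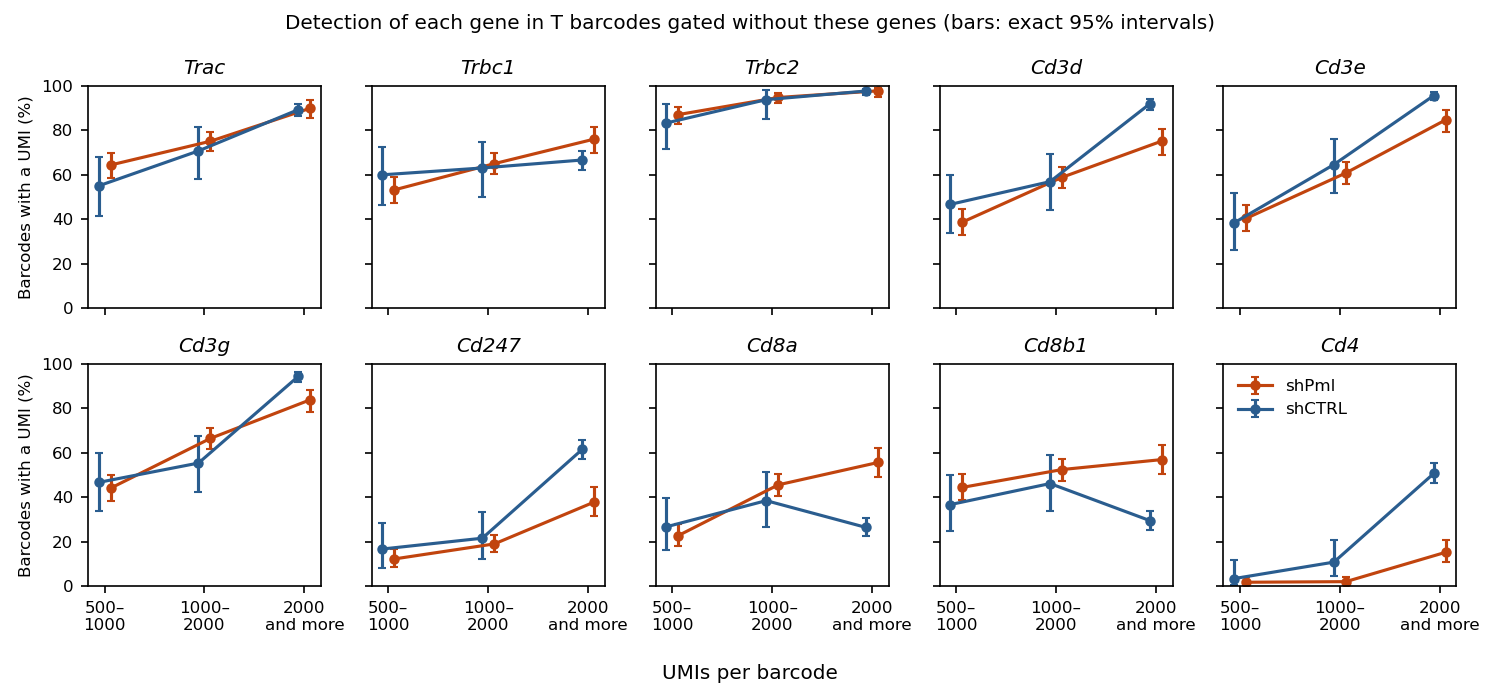
Percent of T barcodes (chosen by other T cell genes) with at least 1 UMI of each gene, against UMIs per barcode, in the shPml (orange) and shCTRL (blue) libraries, with exact 95% intervals. Cd247 stays under 62% even at 2000 UMIs or more, and Cd4 at that depth reaches 50.7% in shCTRL and 15.2% in shPml.

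Gates of cells that should lack a T cell receptor set the background. The 182 shPml neutrophil barcodes held 60 member UMIs, or 86.5 CPM (UMIs per 1000000 UMIs of the gate; 66.0 to 111), against 9886 CPM in the shPml effector gate. A member UMI was seen in 16.5% of them, at a median depth of 3413 UMIs against 1114.5 in the effector gate. One barcode gave 20 of the 60 UMIs, 14 of them Trbc1, and the other 181 held 40, or 58.7 CPM. No Cd4 UMI was found in these 182 barcodes, which allows a share of barcodes with a UMI of up to 1.65% (3 counts). The 24 shCTRL neutrophil barcodes held 17 member UMIs, 167 CPM (97.3 to 267), spread over 14 barcodes. The B gate differed between the libraries: 5 member UMIs over 57 shPml barcodes, or 14.1 CPM, and 257 UMIs over 73 shCTRL barcodes, or 669 CPM. In the shCTRL B gate 6 barcodes held 22 to 58 member UMIs each, and between 2 and 17 UMIs of Cd79a and Cd79b; the other 67 held 50, or 144 CPM.

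The member UMIs in shPml neutrophils were not in the proportions seen in T cells. Cd3d had 15 UMIs in 12 neutrophil barcodes and Cd3e had 1 UMI in 1, so Cd3d made up 93.8% (69.8 to 99.8) of the pair, against 43.1% (41.2 to 45.0) in the regulatory, naive and effector gates of the same library. Trac had 2 UMIs there, and Cd3g had 7 in 5 neutrophil barcodes. The contrast was weaker with Cd3g: Cd3d made up 68.2% (45.1 to 86.1) of that pair, against 42.0% (40.1 to 43.9) in those T gates. No annotated gene of GENCODE M21 overlaps Cd3d. The shCTRL neutrophil gate held 3 Cd3d UMIs and 1 Cd3e UMI, too few to set beside it. The pair of Cd3d and Cd3e was singled out after its values were seen.

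**Figure D2:**
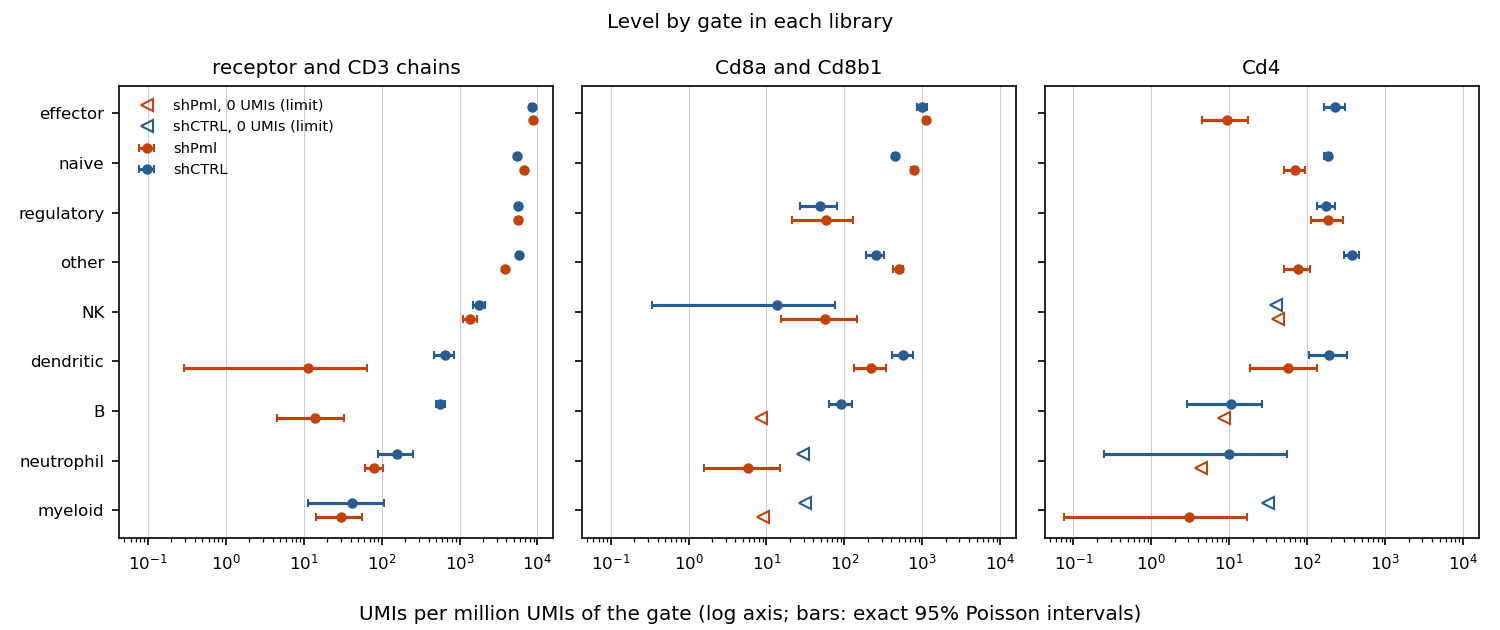
Summed UMIs as CPM of each gate (log axis) for the receptor and CD3 chains, the CD8 chains and Cd4, in both libraries, with exact 95% Poisson intervals; open triangles mark gates with 0 UMIs, at the limit that 3 counts set. The effector, naive and regulatory gates lie between 5477 and 8775 CPM for the receptor and CD3 chains, and the shPml neutrophil, B, dendritic and myeloid gates lie at or under 80.8. In shCTRL the neutrophil, B and dendritic gates lie at 157, 568 and 647, and 1 dendritic barcode held 44 of the 47 UMIs behind the last.

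With all barcodes counted, the alpha and beta constant regions were highest in the effector gate of both libraries. Trac stood at 1323 CPM in shPml effector barcodes, 969 in naive, 734 in regulatory and 460 in other barcodes. In shCTRL it stood at 1103 in effector, 887 in other, 663 in naive and 606 in regulatory barcodes. The intervals of the naive and regulatory gates overlapped in shCTRL (630 to 698 and 523 to 699), and so did those of the shPml gates (894 to 1047 and 578 to 920). Trbc2 had the same leading gate: 4017 CPM in shPml effector barcodes, 2540 in naive and 1459 in regulatory, and 3425, 1414 and 1950 in shCTRL. The shCTRL effector value rested on shared barcodes: without them, in 12 barcodes, Trac stood at 688 and Trbc2 at 946 CPM. The other shCTRL gates without them gave Trac 636 in naive, 668 in regulatory and 906 in other barcodes, and Trbc2 1361, 1895 and 1487, so the effector gate was then the lowest of the 4 for Trbc2. The shPml values without them were 1258 and 3772.

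Trbc1 took a different share of the beta UMIs in different gates. In the shPml effector gate it held 21.03% (19.96 to 22.14) of 5415 Trbc UMIs and in the shPml naive gate 24.3% (22.5 to 26.1) of 2171. In the shCTRL naive gate it held 38.5% (37.1 to 39.8) of 5113, and 38.8% without shared barcodes. In the regulatory gate it held 30.7% in shPml and 25.9% in shCTRL, and without shared barcodes 33.2% and 38.6%, so the order of the libraries there turned with those barcodes. NK cells carry no rearranged receptor, and the NK gate had higher shares: 31 of 57 Trbc UMIs (54.4%, 40.7 to 67.6) in 7 shPml barcodes and 69 of 93 (74.2%, 64.1 to 82.7) in 12 shCTRL barcodes. Without shared barcodes these were 42.2% and 73.2%. Trac had 3 UMIs in each of these NK gates, and in shPml all 3 came from 2 barcodes with Klrb1c and no Ncr1 UMI. In shPml neutrophils Trbc1 held 19 of 29 Trbc UMIs, 14 of them in 1 barcode.

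Single barcodes showed a one-sided pattern. Among barcodes of the regulatory, naive and effector gates with at least 3 Trbc UMIs, both copies were seen in 71.1% of 894 in shPml and 70.1% of 551 in shCTRL. Trbc2 alone was seen in 28.1% and 28.7%. Trbc1 alone was seen in 7 barcodes of each library, 0.783% and 1.27%. Without shared barcodes the values were 68.6%, 30.6% and 0.842% in shPml and 69.1%, 29.1% and 1.73% in shCTRL. NK barcodes went the other way: of 11 in shCTRL with at least 3 Trbc UMIs, 4 had Trbc1 alone and 0 had Trbc2 alone, and of 5 in shPml, 2 and 0. The copies differ by 1 base over exon 1, and the sources used here do not say how reads that match both were counted.

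**Figure D3:**
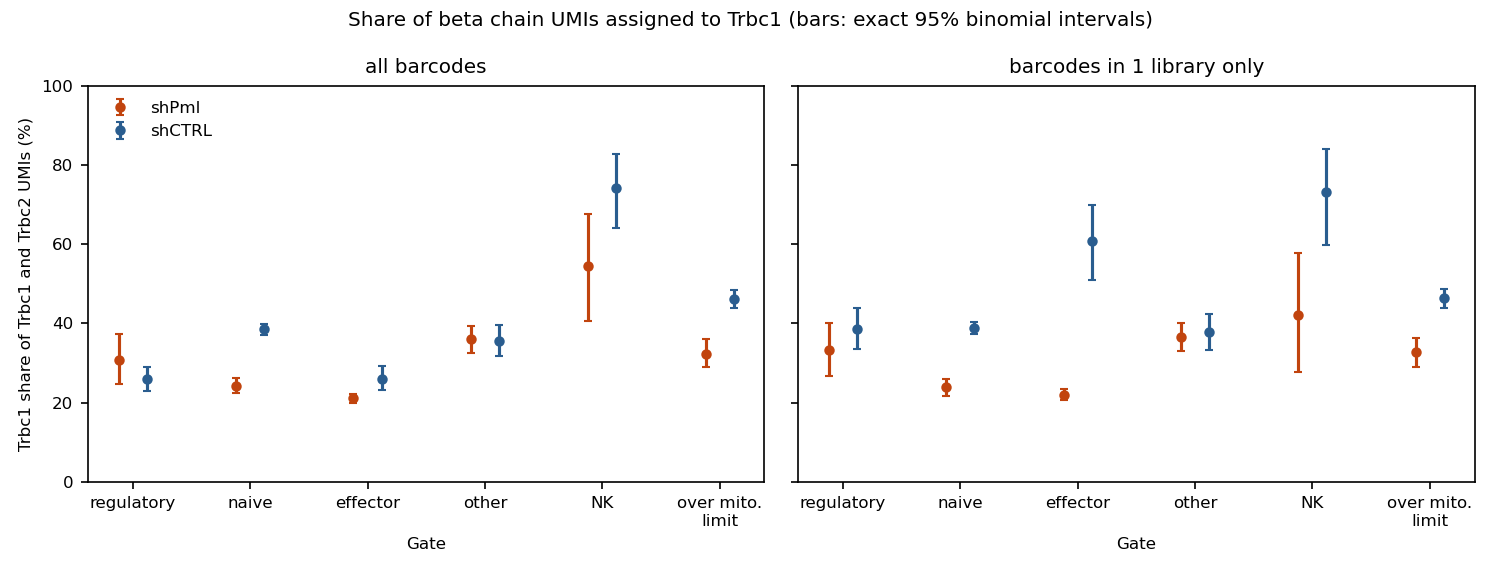
Percent of Trbc1 and Trbc2 UMIs assigned to Trbc1 in each gate and in barcodes over the mitochondrial limit, with exact 95% binomial intervals, for all barcodes (left) and barcodes in 1 library only (right). The naive gate differs between the libraries in both panels (24.3% and 38.5% on the left), and the shCTRL effector point moves from 26.1% to 60.7% when the 120 shared barcodes are left out.

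With all barcodes counted, the CD3 chains were more even over the T cell gates than the receptor chains. Their sum stood at 2366, 2337 and 2849 CPM in the effector, naive and regulatory gates of shPml, and at 2777, 2516 and 2364 in shCTRL, while the receptor chains stood at 6410, 4322 and 2839 in shPml and at 5737, 2961 and 3240 in shCTRL. Cd3e, shared by both CD3 pairs of the complex, ranged from 751 to 910.5 over these gates of both libraries. Cd3g, which pairs with epsilon, was highest in the shPml regulatory gate (1155, 956 to 1383) and the shCTRL effector gate (1230, 1074 to 1403). Cd3d, the delta chain, ranged from 471 to 667, and Cd247 from 127 to 208. Without shared barcodes the shCTRL effector gate gave Cd3d 236 and Cd247 64.5 CPM, from 11 and 3 UMIs. The summed receptor chains of shCTRL then stood at 3096, 2860 and 3756 in the effector, naive and regulatory gates. The summed CD3 chains then stood at 2128, 2433 and 2487, so the contrast was smaller in that library. In NK barcodes Cd3e had 3 UMIs in shPml (42.7 CPM, 8.80 to 125), against 1.44 CPM (0.0365 to 8.03) in neutrophils, and 4 in shCTRL (53.9 CPM, 14.7 to 138), while Cd3g had 24 UMIs (341 CPM) in the 7 shPml barcodes and Cd3d had 14 (189 CPM) in the 12 shCTRL barcodes. The regulatory gate of shPml also held 931 Igkc UMIs, an immunoglobulin light chain gene, of which 1 barcode held 916; their part in the result was not tested.

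Barcodes with CD8 chains and no Cd4 made up 94.0% (92.2 to 95.5) of the 884 shPml barcodes with a coreceptor and 49.9% (45.6 to 54.2) of the 533 in shCTRL. In shPml 831 barcodes had CD8 chains alone, 48 had Cd4 alone and 5 had both. In shCTRL the counts were 266, 242 and 25. Neither was found in 550 of 1434 and 251 of 784 member-positive barcodes. Without shared barcodes the CD8-only share was 94.0% in shPml and 36.6% in shCTRL, since 128 of the 266 shCTRL CD8-only barcodes were shared.

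Depth moved with these classes. Among unshared shPml barcodes of 500 to 1000 UMIs, 284 had CD8 chains and 0 of 576 had Cd4, which allows a share with a UMI of up to 0.521% (3 counts). At 2000 UMIs or more, 63 had CD8 chains alone and 34 had Cd4 alone, a CD8-only share of 63.6% (53.4 to 73.1) of 99. At the same depth 128 of 359 unshared shCTRL coreceptor barcodes were CD8-only, 35.7% (30.7 to 40.9), and 212 were CD4-only. With shared barcodes the CD8-only shares at this depth were 82.9% of 216 and 36.0% of 400. The intervals of the libraries do not overlap in either case. CD4-only barcodes of the T cell and other gates were the deeper in shPml, with a median of 3915 UMIs against 1329 for CD8-only, and the part of depth in the shares below 2000 UMIs was not tested.

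The classes also differed in genes that the coreceptor calls did not use, over the class members in the regulatory, naive, effector and other gates (823 of 831 CD8-only and 47 of 48 CD4-only barcodes in shPml, 259 of 266 and 236 of 242 in shCTRL). Zbtb7b, the transcription factor of the CD4 lineage, had 10 UMIs in 47 CD4-only and 3 in 823 CD8-only shPml barcodes (44.7 and 2.37 CPM), and 43 in 236 and 3 in 259 in shCTRL. Runx3, of the CD8 lineage, stood at 194 CPM in CD8-only and 170 in CD4-only shPml barcodes, and at 223 and 127 in shCTRL; the shPml intervals overlapped. Trac stood at 1247 CPM in CD8-only and 514 in CD4-only shPml barcodes, and at 688 and 729 in shCTRL. Trbc2 stood at 3680 and 1453 in shPml, and at 1607 and 1702 in shCTRL. Trac and Trbc2 were thus over 2-fold higher in CD8-only than in CD4-only shPml barcodes, and slightly lower in those of shCTRL. Xist, expressed from the inactive X of female cells, stood at 84.4 CPM in CD8-only and 1127 in CD4-only shPml barcodes, and 4 genes of the Y chromosome (Uty, Kdm5d, Eif2s3y and Ddx3y) at 169 and 4.47. In shCTRL Xist stood at 669 and 663. The part of this in the Trac and Trbc2 levels was not tested.

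**Figure D4:**
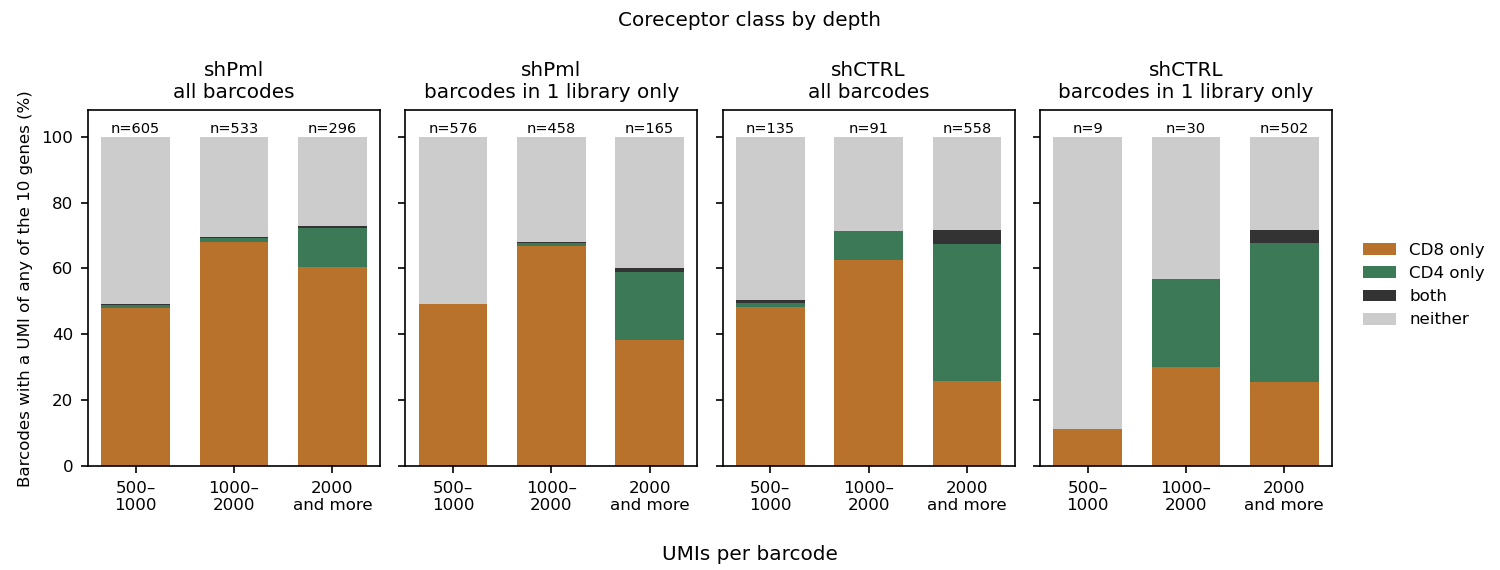
Percent of member-positive barcodes with CD8 chains only, Cd4 only, both or neither, against UMIs per barcode, for all barcodes and for barcodes in 1 library only; n is the number of barcodes in a bar. Of the 38 unshared shPml barcodes with Cd4 alone, 34 lie at 2000 UMIs or more, where they are 34 of 165 barcodes; in shCTRL 212 of 502 at that depth had Cd4 alone.

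Barcodes with both coreceptors were rare, and most had only 1 UMI of at least one coreceptor. The 5 in shPml were 0.566% (0.184 to 1.31) of coreceptor barcodes, and the 25 in shCTRL were 4.69% (3.06 to 6.85). With 2 UMIs required of a coreceptor, 0.406% and 0.599% were left, and thinned to 500 UMIs 0.196% and 0.909%. Among the shCTRL barcodes 8 had exactly 1 UMI of each and 2 had at least 2 of each, and 3 of the 25 lay in the dendritic gate. Scrublet marked 0 of these barcodes as doublets, out of 2 and 3 barcodes it marked in all, so it is no check here.

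The CD8 chains were found together more often in deeper barcodes. Cd8b1 was present in 50.4%, 60.1% and 77.3% of Cd8a barcodes over the depth bins in shPml, and in 45.9%, 50.0% and 87.5% in shCTRL. Cd8b1 held 55.9% (53.5 to 58.3) of the Cd8 UMIs in the T gates of shPml and 59.8% (56.9 to 62.6) in shCTRL, and 58.4% and 63.2% without shared barcodes. Of 136 shCTRL T gate barcodes with at least 3 Cd8 UMIs, 3 had Cd8a alone and 10 had Cd8b1 alone. Of 238 in shPml, 18 had Cd8a alone and 26 had Cd8b1 alone. The dendritic gate of shPml held 19 Cd8a and 0 Cd8b1 UMIs, and 16 of the Cd8a UMIs came from 1 barcode with 20 Xcr1 and 9 Clec9a UMIs, both markers of cross-presenting dendritic cells. In shCTRL a barcode with 17 UMIs of Siglech, a plasmacytoid marker, held 20 Cd8b1, 3 Cd8a and 7 Cd4 UMIs, and another with 13 held 17 Cd8a and 0 Cd8b1 UMIs. None of these 3 barcodes, each of which was shared, had a Trbc or CD3 UMI, and the last had 1 Trac UMI.

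Barcode sequences found in both libraries did not differ in coreceptor class between CD8 alone and Cd4 alone. Of the 198 pairs deeper in shPml, CD8 chains were found in both copies in 105, in the shPml copy alone in 61 and in the shCTRL copy alone in 8. Of the 63 deeper in shCTRL, Cd4 was found in both copies in 10, in the shCTRL copy alone in 15 and in the shPml copy alone in 0. In 0 pairs did 1 copy show CD8 chains alone and the other Cd4 alone. A pair with a coreceptor in 1 copy only could not differ in this way. Of the 198 pairs, Cd4 was found in both copies in 1 and in the shCTRL copy alone in 2, so few could differ. Of the 63, CD8 chains were found in both copies in 11 and in the shCTRL copy alone in 10.

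Between the libraries, the receptor and CD3 chains together differed little in the regulatory gate and were higher in the naive gate of shPml. In the effector gate they differed little only with shared barcodes counted, which were 120 of the 132 shCTRL barcodes there. The log2 ratio of shPml to shCTRL was 0.02 (−0.12 to 0.16) in the regulatory gate, 0.28 (0.23 to 0.33) in the naive gate and 0.04 (−0.03 to 0.12) in the effector gate. Without shared barcodes it was −0.11 (−0.27 to 0.05), 0.38 (0.32 to 0.44) and 0.70 (0.52 to 0.89), the last from 12 shCTRL barcodes. The higher naive value came from the summed receptor chains, at 0.55 (0.48 to 0.61), while the CD3 chains stood at −0.11 (−0.19 to −0.02). Without shared barcodes these were 0.63 and 0.02. Of the receptor chains in the naive gate, Trac and Trbc2 were higher. Trbc1 was not, at −0.12 (−0.26 to 0.02), and at −0.085 without shared barcodes. In the regulatory gate the receptor chains stood at −0.19 (−0.38 to −0.0007) and the CD3 chains at 0.27 (0.07 to 0.47). Without shared barcodes these were −0.40 and 0.24. In the effector gate they stood at 0.16 (0.07 to 0.26) and −0.23 (−0.37 to −0.09), and without shared barcodes at 0.98 and 0.19. Of 8 markers of other cells (S100a8, S100a9, Cd79a, Cd79b, Ighm, Igkc, Lyz2 and Cd74), the summed level in the regulatory gate was 9594 CPM in shPml and 443 in shCTRL, in the naive gate 465 and 258, and in the effector gate 1344 and 2478. Igkc gave 931 of the 980 UMIs behind the shPml regulatory value, 916 of them in 1 barcode. It also gave 927 of 1431 effector UMIs in shPml, 859 of them in 1 barcode, and 356 of 447 in shCTRL, 328 of them in 1 barcode. The markers Cd79a, Cd79b and Lyz2 were at 0 in the shPml regulatory gate; their part in the results was not tested.

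In the naive gate Cd8a stood at 348 CPM in shPml and 170 in shCTRL (log2 1.03, 0.79 to 1.27) and Cd4 at 69.5 and 183 (−1.40, −1.88 to −0.95). These were the 2 of 10 members past 2-fold, 1 in each direction, where 11.3% of 8135 genes were higher and 13% lower past 2-fold. Trbc2 stood at 0.84, Cd8b1 at 0.66, Trac at 0.55 and Cd247 at −0.49, all inside 2-fold. Without shared barcodes Cd8a stood at 1.17 and Cd4 at −1.31, with a background of 11.2% and 13.3% of 7583 genes. At a mitochondrial limit of 5% the Cd8a ratio turned to −0.088 (−0.78 to 0.54). The naive gate of shPml held 86 Y-linked UMIs in 66 barcodes and 217 Xist UMIs in 30, and that of shCTRL 3 in 2 and 1493 in 317. The genes that define the gate differed in both directions: Lef1 stood at 164 CPM in shPml and 526 in shCTRL, Igfbp4 at 71.1 and 472, Ccr7 at 1307 and 710, and Dapl1 at 408 and 280. Gzmb, a cytotoxic gene outside this gate, stood at 150 and 14.8 CPM; their part in the result was not tested.

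In the regulatory gate, of 22 shPml and 40 shCTRL barcodes, 0 of the 8 members with at least 20 summed UMIs passed 2-fold, with 8.41% of 3104 genes higher and 11.8% lower. Cd3g stood at 0.50 (0.17 to 0.82) and Trbc2 at −0.42 (−0.69 to −0.16). Without shared barcodes these were 0.64 and −0.42, Trbc1 moved from −0.08 to −0.76 (−1.21 to −0.33), and 11.5% of 1591 genes were higher and 7.42% lower.

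In the effector gate 1 of 10 members passed 2-fold, where 6.99% of 5905 genes were higher and 5.76% lower. It was Cd4, with 10 UMIs in 798 shPml barcodes and 41 in 132 shCTRL barcodes (log2 −4.60, −5.76 to −3.57). The 10 UMIs lay in 4 barcodes and the 41 in 7, and 3 shared barcodes held 32 of the 41. As a mean over barcodes Cd4 stood at 3.01 CPM in shPml and 46.8 in shCTRL. The log2 ratio was 0.26 for Trac, 0.23 for Trbc2 and −0.58 (−0.79 to −0.36) for Cd3g. Without shared barcodes, against 12 shCTRL barcodes, 4 of the 9 measured members were higher past 2-fold and 0 lower, with a background of 13.2% and 18.5% of 4595 genes. They were Trbc2 (1.996), Cd8b1 (1.72), Cd3d (1.47) and Cd247 (1.28, from 3 shCTRL UMIs, −0.31 to 3.58), and Cd4, with 19 summed UMIs, was not measured. In these unshared barcodes Xist stood at 45.3 CPM in shPml and 1075 in shCTRL, from 33 and 50 UMIs. Y-linked UMIs numbered 118 in shPml and 0 in shCTRL. The part of this in the ratios was not tested.

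**Figure D5:**
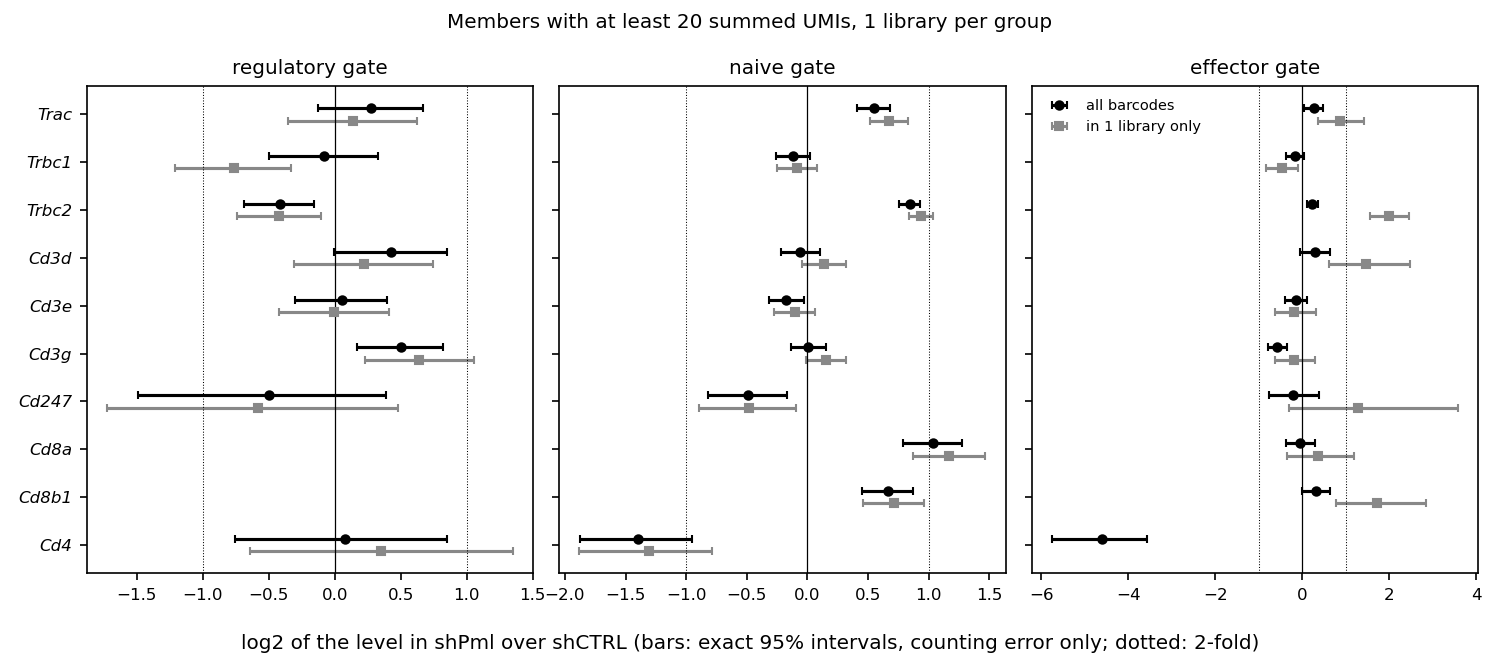
Log2 of the level in shPml over shCTRL for the members with at least 20 summed UMIs in the regulatory, naive and effector gates, with exact 95% intervals for counting error, for all barcodes (black) and barcodes in 1 library only (grey); each panel has its own horizontal scale and dotted lines mark 2-fold. In the naive gate black and grey lie close together, and in the effector gate the grey Trbc2 point is at 1.996 against 0.23 in black.

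The genes that act beside the receptor were taken as a list of 53: alternative receptor chains, kinases and phosphatases, adaptors, downstream signalling enzymes, and costimulatory and adhesion receptors. In the naive gate 4 of the 48 measured were higher past 2-fold in shPml and 11 lower, against 11.3% and 13% of all genes tested, with a median log2 of −0.41 against 0.03 over all genes tested. The downstream enzymes accounted for 5 of the 11. Dgka, a kinase that removes the second messenger diacylglycerol, stood at −1.50 (−1.85 to −1.17), and Rasgrp1, the diacylglycerol-responsive activator of Ras, at −1.59 (−2.16 to −1.06). Txk, a Tec family kinase, stood at −1.50 and Sit1, an inhibitory adaptor, at −2.11. Higher were Sh2d2a, an Lck-binding adaptor, at 1.55 (1.30 to 1.80), the delta constant region Trdc at 1.90, the costimulatory receptor Icos at 1.04 and the adaptor Sla at 1.004. Without shared barcodes 5 were higher and 11 lower, against 11.2% and 13.3%, and Trat1, which stabilises the complex, stood at −2.88.

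In the effector gate 0 of 48 partner genes were higher past 2-fold and 4 lower, against 6.99% and 5.76% of all genes, among them Fcer1g, a signalling chain related to zeta, at −2.06 (−3.02 to −1.08), the ubiquitin ligase Cbl at −1.38 and Dgka at −1.05. Txk stood at −0.92, Cd28 at 0.56 and Sh2d2a at 0.29. Without shared barcodes 3 were higher and 12 lower of 47, against 13.2% and 18.5%, with Sh2d2a at 2.29 from 10 shCTRL UMIs. In the regulatory gate 2 of 39 were higher and 2 lower, against 8.41% and 11.8%: Malt1, of the NF-kB pathway, stood at 1.31 (0.71 to 1.92), while Sla stood at 0.94, Icos at 0.74 and the adaptor Fyb at −0.61. Without shared barcodes 3 were higher and 6 lower of 35, against 11.5% and 7.42%, and Malt1 stood at 1.05.

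Over the 9 gates of both libraries (18 points, 4504 genes with at least 200 UMIs) the genes whose level most resembled the summed members included Lat (Pearson r 0.951), Cd28 (0.923), Tox (0.919) and Thy1 (0.919). For the CD8 chains they were Uqcc3 (0.863), Gtf2i, Commd2, Mthfd2 and Apobec3, and for Cd4 they were Hp1bp3 (0.853), Abhd8, Cd5, Cd6 and Mbp. The points share 2 libraries and differ in depth, so these values are a description.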

How the data were processed

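Cells sorted for CD45 from tumours of both groups were measured with the 10x Chromium platform, 1 library each. The authors deposited raw UMI counts per gene and barcode. Per the file headers, Cell Ranger 4.0.0 wrote them. R 4.3.3, Seurat 4.4.0 and the build mm10 are named, without a role, in the submitters' processing notes. The lowest barcode total was 500 UMIs. Python 3.11.15, NumPy 2.4.6, SciPy 1.17.1, pandas 2.3.3 and Scanpy 1.11.5 were used. Barcodes over 10% mitochondrial UMIs were left out, and doublets were kept in the main values. Gates were assigned in the order given, with at least 2 UMIs of the named genes (Foxp3: 1). Levels are summed UMIs per 1000000 UMIs, with exact Poisson intervals; shares have Clopper-Pearson intervals and ratios exact conditional intervals. A gene counted as past 2-fold needed 20 summed UMIs, and a 0 was set to 3 counts. Thinning drew 500 UMIs per barcode. Likeness used log2 of the level plus 10. The ratio intervals were tested only on simulated Poisson sums, the error they assume. That test cannot show how they hold where a few barcodes carry most UMIs. All members were named; partner genes were the up to 4 per gate and direction with the interval farthest from 0. Some genes of these lists are not reported here. Members and lists were chosen with earlier results of these data known. The regulatory T gate and others are defined by transcripts alone. Locations come from GENCODE M21.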

Additional observations from a re-analysis of the deposited data

Results flagged for a closer look

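Barcodes over the mitochondrial limit were left out of the comparisons, yet members were detected in most of them. In the shPml library 313 of 514 such barcodes (60.9%, 56.5 to 65.1) had a member UMI, and in the shCTRL library 1189 of 1388 (85.7%, 83.7 to 87.5). A count of 0 would allow 0.584% and 0.216% (3 counts). Their median depth was 711.5 and 848 UMIs, and the members stood at 3147 and 3162 CPM, between the neutrophil and the effector gates. Barcodes with CD8 chains alone made up 64.0% (55.8 to 71.7) of 150 coreceptor barcodes in shPml, and 48.1% (43.0 to 53.2) of 387 in shCTRL. Trbc1 alone was seen in 12 of 96 shPml and 41 of 223 shCTRL barcodes with at least 3 Trbc UMIs, 12.5% and 18.4%. In the kept regulatory, naive and effector gates the shares were 0.783% and 1.27%. The barcodes over the limit were not split by gate, so they can include NK and other cells, and these sets are unlike. The part of the barcodes over the limit in the results was not tested.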

How the results depend on the processing

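No paired analysis was possible because there was only 1 library in a group. At a mitochondrial limit of 5% the share of barcodes with a member UMI was 66.3% in shPml and 89.4% in shCTRL, the CD8-only share 89.7% and 45.2%, the Trbc1 share in shPml 19.8%, the Cd8b1 share in shCTRL 56.3%, the regulatory log2 ratio of the receptor and CD3 chains 0.17 and the naive one 0.14; the naive Cd8a ratio turned to −0.088. With no limit the member shares were 77.0% and 87.9%, the CD8-only share in shPml 89.7%, the Trbc1 share in shCTRL 36.9%, and the naive and effector ratios 0.34 and 0.22. Without shared barcodes the CD8-only share in shCTRL was 36.6%, its Trbc1 share 39.3%, the Cd8b1 shares 58.4% and 63.2%, and the naive and effector ratios 0.38 and 0.70. Thinned to 500 UMIs, the member shares were 76.8% and 82.2%, the CD8-only shares 97.2% and 70.5%, and the double coreceptor share in shCTRL 0.909%. With 2 UMIs per coreceptor the shCTRL values were 59.6% CD8-only and 0.599% double. As a mean over barcodes the shCTRL Trbc1 share was 30.9%, and the regulatory and naive ratios −0.27 and 0.48. The causes were not tested. The neutrophil level stayed within its interval under each alternative run. Of 336 further values for single genes, 282 stayed within their interval, 53 moved and 1 reversed. Below 1000 UMIs a missing Cd247 UMI says little about a cell. For Cd4, loss of UMIs and a lack of CD4 cells cannot be told apart at that depth.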
